A study of Mus musculus with 2 samples.

Results

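Ccl3, Ccl4, Ccl5 and Xcl1 are 4 chemokine genes of lymphocytes, taken by symbol from a count matrix of colon crypt cells and described across the 4 cell clusters and 3 epithelial subclusters that the authors listed. They are 4 of the 19294 genes of the matrix, and all 4 symbols were found. The matrix also holds 14 other genes named as chemokine ligands.

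The study sorted crypt cells of the mouse colon by whether the Tcf4 promoter had ever been active in them, and measured single cells by Drop-seq, which counts captured transcripts by unique molecular identifiers (UMIs). Its question was which cell populations make up the Tcf4 lineage-negative (Lin-) cells. The labels give 2 libraries of 1 group, pooled samples 1 to 3 and pooled samples 4 to 6. All animals were C57BL/6 mice of genotype Tcf4GfpCre/+ RosamTmG/+, killed at 4 to 10 months with no pretreatment. The Cre driver is knocked into Tcf4 (also named Tcf7l2), so every animal had 1 working Tcf4 allele, and no wild-type animal was measured. The sorted cells were Tcf4 Lin- cells and cells of the DP (double-positive, or MIX) gate, animals were pooled, and human cells were mixed in to reach the cell number for the droplets. Both libraries stand in 1 matrix. Its barcodes end in X1 or X2, and no label ties these endings to a pool or a gate.

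Chemokines are small secreted proteins that draw cells along a gradient to receptors on their surface. Ccl3, Ccl4 and Ccl5 belong to the CC family, named for adjacent cysteines near the start of the mature protein, and draw T cells and myeloid cells. Xcl1 (lymphotactin) belongs to the smaller C family, which keeps a single disulfide bond, and acts on Xcr1, the receptor of cross-presenting dendritic cells. Intraepithelial lymphocytes (IELs) sit between the epithelial cells of the gut, and activated or memory-like cytotoxic lymphocytes are a known source of all of these chemokines.

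The second exon of each gene is shown because it holds the cysteine codons by which the family is divided. Capitals mark in-frame cysteine codons. The sequences run 5′ to 3′ along the coding strand and come from the GENCODE vM21 transcripts on GRCm38: Ccl3 at chr11:83648569-83648680 on the minus strand, Ccl4 at chr11:83663459-83663573 on the plus strand, Ccl5 at chr11:83529156-83529267 on the minus strand, and Xcl1 at chr1:164932895-164933009 on the minus strand.
Ccl3: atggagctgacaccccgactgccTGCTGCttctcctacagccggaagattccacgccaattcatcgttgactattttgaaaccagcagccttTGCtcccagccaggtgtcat
Ccl4: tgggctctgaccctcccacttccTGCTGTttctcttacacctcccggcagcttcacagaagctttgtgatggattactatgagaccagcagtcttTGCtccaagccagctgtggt
Ccl5: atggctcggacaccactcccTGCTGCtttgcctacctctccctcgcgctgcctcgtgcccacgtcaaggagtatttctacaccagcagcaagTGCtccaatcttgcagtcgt
Xcl1: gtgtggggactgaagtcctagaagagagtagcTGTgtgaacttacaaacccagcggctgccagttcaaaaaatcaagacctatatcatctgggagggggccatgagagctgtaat
Each of the 3 CC genes has 3 cysteine codons in this exon, 1 pair of them adjacent, while Xcl1 has 1 cysteine codon and 0 adjacent pairs. Over the whole coding sequence Ccl3 and Ccl4 were identical at 69.5% of aligned positions, Ccl3 and Ccl5 at 63.4%, and Ccl4 and Ccl5 at 62.9%. Xcl1 was 49.0% to 51.1% identical to the others. Ccl3 and Ccl4 lie 13228 bases apart on chromosome 11, and Ccl5 lies 117325 bases from Ccl3. The longest run shared by any pair of the 4 whole transcripts was 13 bases. No other annotated gene shared a run of 30 bases with any of these transcripts. The noncoding gene Gm20743 overlaps Xcl1 on the opposite strand. It is counted separately, with 1 UMI in the listed cells, and whether counting kept strands apart is not stated.

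The matrix holds 1117 barcodes, 1042 of set X1 and 75 of set X2, and the sets share 0 barcodes. The lists of the authors place part of them in clusters: 190 natural IELs (nIELs), 186 induced IELs (iIELs), 47 cells named B cells and 93 epithelial cells. The list of subclusters holds 32 stem cells, 32 secretory precursors and 42 absorptive precursors. Listed cells had 504 to 23205 UMIs. The median was 1145.5 UMIs in nIELs, 965.50 in iIELs, 1503.0 in the B-cell cluster and 1645.0 in epithelial cells. Levels are given as UMIs per 1000000 UMIs of a group (CPM), with exact Poisson 95% intervals. A UMI counts 1 transcript end whatever the transcript's length. The 2 libraries cannot be told apart in the matrix and belong to 1 group, so no difference was tested. All intervals cover counting error only and not differences between animals.

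Some cells went against their labels. The nIEL and iIEL clusters hold 14 cells that the subcluster list names as epithelial, 11 in the iIELs and 3 in the nIELs. Their median depth is 1282.5 UMIs, but 4 of the 11 have 19945 to 23205 UMIs each. The 11 carry 34.8% of all UMIs of the iIEL cluster, 30.7% in those 4, against 1.13% for the 3 in the nIELs. Of the 14, 1 had a UMI of Cd3d, Cd3e or Cd3g, the T-cell receptor complex genes. They held 10 Ccl5 UMIs, at most 4 in 1 cell, and 0 UMIs of the other 3 chemokines. Their main effect on chemokine levels is on the total that iIEL levels are divided by. IEL levels are therefore given with all listed cells and without these 14.

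The labels were checked against marker genes. A UMI of Cd3d, Cd3e or Cd3g was found in 88.9% of nIELs and 86.6% of iIELs, against 2.15% of epithelial cells. At least 1 of the B-cell markers Cd79a, Cd79b and Ms4a1 was found in 34 of the 47 cells of the B-cell cluster, but 11 of the 47 had a Cd3 UMI, and 10 of these 11 had UMIs of both kinds. The epithelial markers Epcam, Krt8, Krt19 and Pigr gave a UMI in 93 of 93 epithelial cells. No cell was removed as a doublet. By a rule of at least 2 UMIs of the T-cell markers with at least 2 of the B-cell or epithelial markers, 5 of the listed cells held markers of a pair of lineages, and all 5 were in the B-cell cluster. The macrophage, mast cell, neutrophil and dendritic cell markers were few in the IELs without the 14 cells: 27, 7, 2 and 2 UMIs over 362 cells. Over all listed cells the macrophage list had 23 UMIs in iIELs (80.9 CPM) and 5 in nIELs (20.6 CPM). Of the 23, 19 were Lyz2 UMIs in 2 cells. The mast cell list ran the other way, with 1 UMI in iIELs and 7 in nIELs. The B-cell cluster held more of the macrophage list, 67 UMIs (873 CPM), of which 63 were Lyz2 UMIs in 3 cells. A UMI of the dendritic cell list was found in 7 of its 47 cells. The markers of NK cells and group 1 innate lymphoid cells, Ncr1, Klrb1c and Eomes, gave 41 UMIs in 22 of these 362 cells. Their sum differed between the clusters, with 32 UMIs in 15 nIELs and 9 in 7 iIELs. Over all listed cells, the 14 included, these are 132 CPM in nIELs and 31.7 CPM in iIELs. Without the 14 cells the iIEL total falls from 284127 to 185158 UMIs, so the iIEL level is higher and the gap smaller. The genes of this list did not run alike. Ncr1 had 14 UMIs in nIELs and 1 in iIELs, and Klrb1c 17 and 2, but Eomes had 1 in nIELs and 6 in iIELs.

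Ccl5 (RANTES) was the most abundant of the 4 in UMIs. Its level was 14522 CPM (14082 to 14972) in iIELs, 7756 CPM (7410 to 8115) in nIELs, 3624 CPM (3210 to 4076) in the B-cell cluster and 48.3 CPM (25.0 to 84.4) in epithelial cells. No neighbours in this order had overlapping intervals. By UMIs it was gene number 2 of the 14326 seen in iIELs, with 1.45% of all their UMIs, number 4 in nIELs with 0.776%, and number 26 in the B-cell cluster. Without the 14 cells the level was 22235 CPM (21561 to 22925) in iIELs and 7841 CPM (7491 to 8203) in nIELs. Of the 3 epithelial subclusters, the secretory one stood at 77.7 CPM, the absorptive one at 72.5 CPM and the stem cells at 14.5 CPM, the last from 1 UMI. Their intervals overlap.

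Ccl5 was also found in most IELs. At least 1 Ccl5 UMI was present in 90.9% of iIELs (85.8% to 94.6%, Clopper-Pearson) and 78.4% of nIELs (71.9% to 84.0%), against 9.68% of epithelial cells, which are no lymphocytes and are deeper. The median cell held 19.9 Ccl5 UMIs per 1000 in iIELs, 3.90 in nIELs and 0 in epithelial cells. Single cells reached 153 Ccl5 UMIs. When every cell was thinned to 700 UMIs, the shares were 87.4% of iIELs, 74.7% of nIELs and 3.39% of epithelial cells, so the contrast with the epithelium widened at equal depth. The nIELs were the more uneven: the tenth of nIELs with the most Ccl5 UMIs held 46.1% of them, against 30.6% in iIELs.

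Xcl1 (lymphotactin) was higher in nIELs than in iIELs, unlike Ccl5. Its level was 836 CPM (725 to 959) in nIELs, 248 CPM (149 to 387) in the B-cell cluster and 134 CPM (94.6 to 184) in iIELs. The intervals of the last pair overlap, and the interval of their ratio, 1.01 to 3.29, starts just above 1. Without the 14 cells the iIEL level was 205 CPM (145 to 282) and the nIEL level 846 CPM (733 to 970). No Xcl1 UMI was found in epithelial cells, which allows at most 12.1 CPM there (3 counts), or in the subclusters, where the limits were 43.4, 23.3 and 19.8 CPM for stem, secretory and absorptive cells. A UMI was present in 44.2% of nIELs and 14.0% of iIELs, against 0 of 93 epithelial cells (0 to 3.89%). At these depths a share with a UMI is not the share of cells that express the gene. After thinning to 700 UMIs the shares were 33.2% and 10.1%. Its 203 nIEL UMIs came from 84 cells, with at most 17 in 1 cell, and the tenth of nIELs with the most held 54.2% of them.

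Ccl4 (MIP-1 beta) was an iIEL gene at a lower level. It stood at 239 CPM (186 to 303) in iIELs, 78.2 CPM (28.7 to 170) in the B-cell cluster and 28.8 CPM (11.6 to 59.4) in nIELs, and the intervals of the last pair overlap. Without the 14 cells the levels were 367 CPM (285 to 466) in iIELs and 29.2 CPM (11.7 to 60.1) in nIELs. No Ccl4 UMI was seen in epithelial cells or in any subcluster, with the same limits as for Xcl1. A UMI was present in 18.3% of iIELs and 2.63% of nIELs, and after thinning in 14.4% and 2.10%. The 68 UMIs of the iIELs came from 34 cells, 1 of which held 19.

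Ccl3 (MIP-1 alpha) was the rarest of the 4, with 22 UMIs in all listed cells. Its level was 66.9 CPM (40.3 to 104) in iIELs and 12.4 CPM (2.55 to 36.1) in nIELs. It was not detected in the B-cell cluster, which allows at most 39.1 CPM, or in epithelial cells and subclusters. Without the 14 cells the levels were 103 CPM (61.8 to 160) and 12.5 CPM (2.58 to 36.5). A UMI was present in 6.45% of iIELs and 1.58% of nIELs, and after thinning in 4.08% and 0.650%. These are 12 and 3 cells, and 1 iIEL held 7 of the 19 UMIs.

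**Figure D1:**
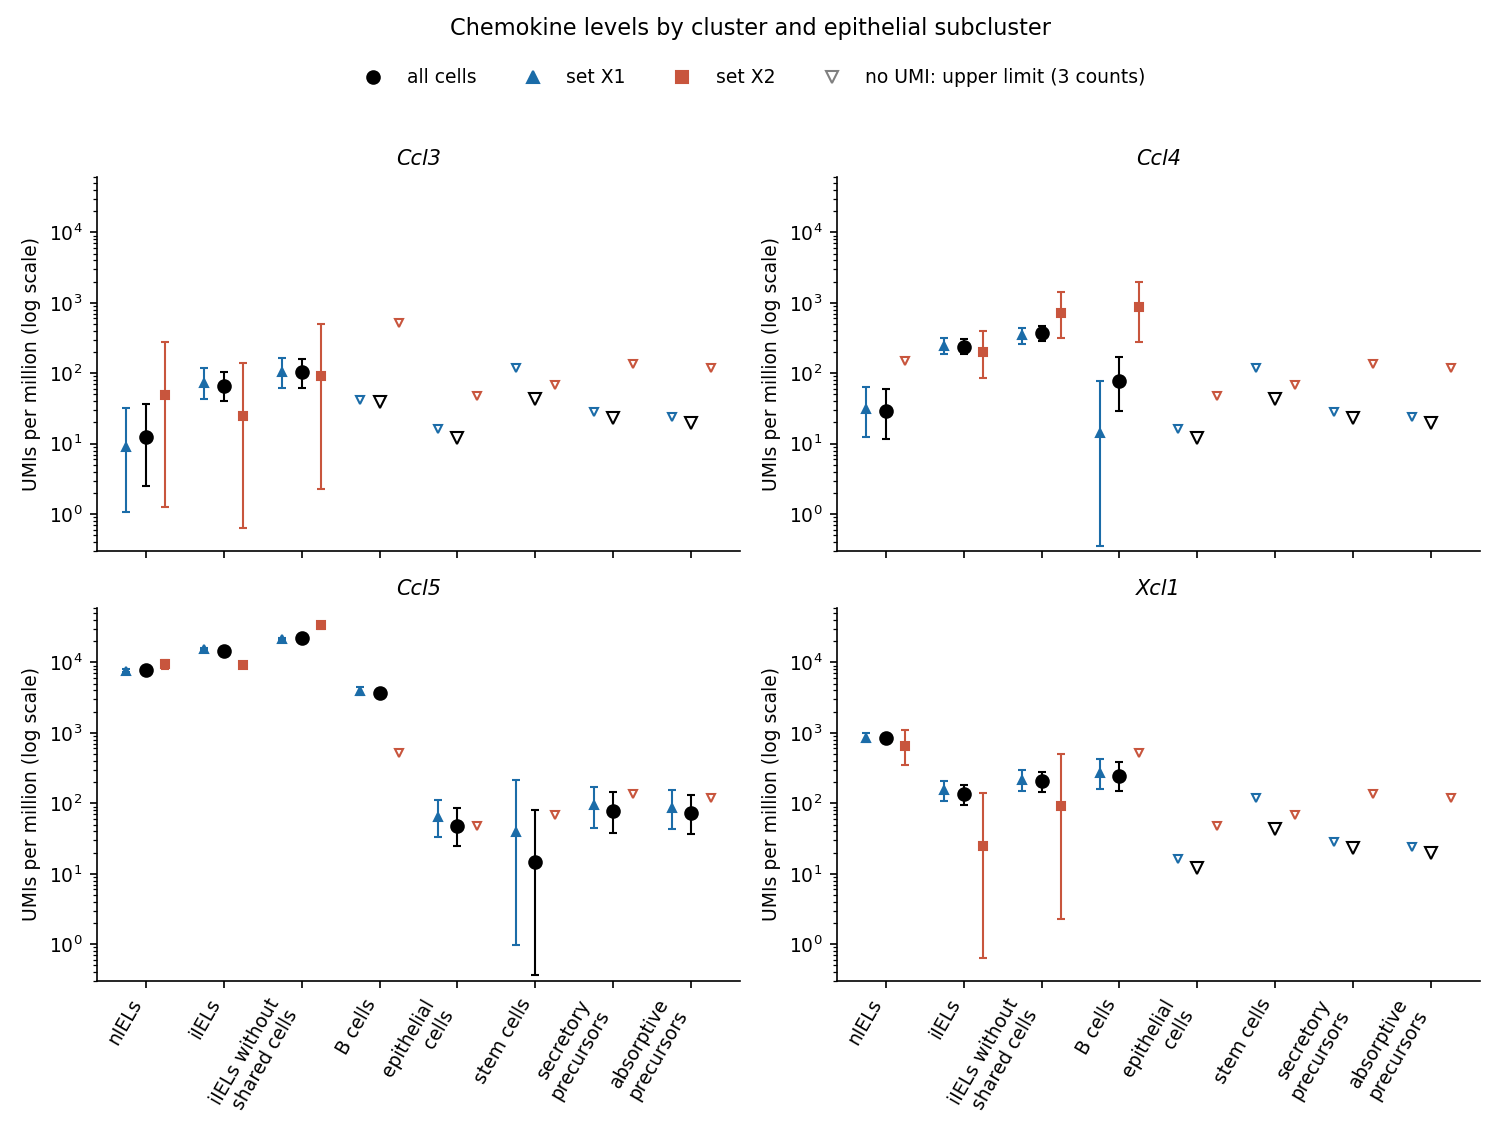
Level of each chemokine (CPM, log scale) in each cluster and epithelial subcluster, with exact Poisson 95% intervals, for all cells (circles), barcode set X1 (filled triangles) and set X2 (squares); open triangles mark the upper limit where no UMI was found. Ccl5 is highest in iIELs (14522 CPM) and seen in all 4 clusters, Xcl1 is highest in nIELs (836 CPM), and Ccl3, Ccl4 and Xcl1 have no UMI in epithelial cells.

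Barcode sets X1 and X2 were set side by side. Ccl5 in nIELs was 7611 CPM in X1 and 9366 CPM in X2. In iIELs it was 15396 CPM in X1 and 9190 CPM in X2, so in X2 as listed nIELs and iIELs did not differ, with a ratio of 1.02 (0.850 to 1.22). Of the 16 iIELs of X2, 3 are among the 14 cells, with 29021 of the 40045 UMIs. Without them the Ccl5 level of the X2 iIELs was 33382 CPM (30058 to 36973), 3.56 times that of the X2 nIELs, and the X1 ratio without such cells was 2.80 (2.64 to 2.96). Xcl1 in nIELs was 853 CPM in X1 and 648 CPM in X2, and in iIELs 152 CPM and 25.0 CPM, the last from 1 UMI. Without the cells of both lists these iIEL values were 212 CPM and 90.7 CPM. Ccl4 in iIELs was 246 CPM in X1 and 200 CPM in X2, and without those cells 345 CPM (263 to 444) and 726 CPM (313 to 1430), so the order turned while the intervals overlap. In X2 nIELs, where 0 Ccl4 UMIs were found in 17 cells, the limit was 149 CPM. In the B-cell cluster, with 5 cells in X2, Ccl4 was 14.1 CPM in X1, from 1 UMI, and 859 CPM in X2, from 5 UMIs, while Ccl5 was 3921 CPM in X1 and 0 in X2, where the limit was 515 CPM. Ccl5 in epithelial cells was 64.4 CPM in X1 and 0 in X2, with a limit of 48.3 CPM. Ccl3 had 1 UMI in the X2 nIELs and 1 in the X2 iIELs, too few to compare.

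**Figure D2:**
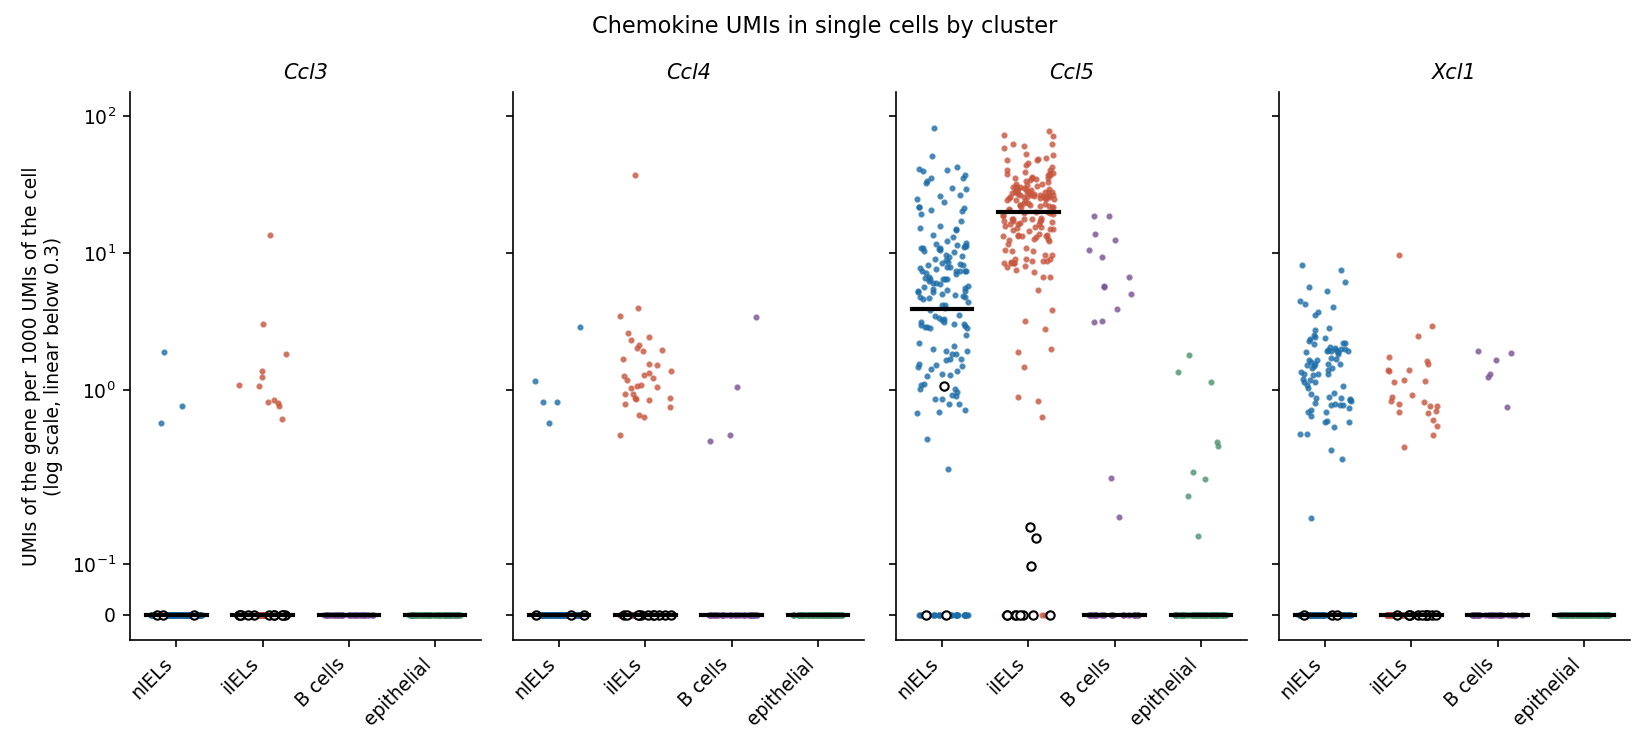
UMIs of each chemokine per 1000 UMIs of a cell (log scale, linear below 0.3), 1 point per cell, in the 4 clusters; bars mark medians and open circles the 14 cells that are IELs in 1 list and epithelial in the other. The median is above 0 only for Ccl5, at 19.9 in iIELs and 3.90 in nIELs.

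The comparison of nIELs with iIELs asks how far the IEL populations differ in each chemokine. Because the clusters were made from the same counts, the ratios are descriptions. Xcl1 was 6.25-fold higher in nIELs (4.40 to 9.09), and 4.12-fold (2.90 to 5.99) without the 14 cells. The 15 nIELs with a UMI of an NK cell marker had more Xcl1, 1910 CPM (1403 to 2540) against 724 CPM (615 to 847) in the others. With such cells left out of both clusters together with the 14, a choice made after seeing the data, the Xcl1 ratio was 3.56 (2.47 to 5.27). Of the 7 iIELs left out for such a UMI, 5 had an Eomes UMI. In the other direction, Ccl4 was 8.30-fold higher in iIELs (3.82 to 21.4), and 12.6-fold (5.79 to 32.5) without them. Ccl3 was 5.41-fold higher in iIELs (1.59 to 28.6), and 8.21-fold (2.42 to 43.3) without them. Leaving out the 1 cell with the most Ccl3 UMIs gave 3.42-fold, with an interval of 0.924 to 18.9 that includes 1. Ccl5 was 1.87-fold higher in iIELs (1.77 to 1.98), and 2.84-fold (2.68 to 3.00) without the 14 cells. So the CC members leaned to iIELs and the C member to nIELs.

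Against all 4189 genes with at least 20 UMIs in nIELs and iIELs together, 1 of the 4 chemokines, Xcl1, was at least 2-fold higher in nIELs, where 6.97% of all these genes were. At least 2-fold higher in iIELs were 2 of the 4, Ccl3 and Ccl4, where 13.2% of all were. Without the 14 cells, 1 of 4 was higher in nIELs, where 5.72% of 3321 genes were, and 3 of 4 in iIELs, where 6.20% were, since Ccl5 then passed 2-fold. All 4 chemokines passed the minimum of 20 UMIs, Ccl3 with 22, of which 19 were in iIELs. Ccl4 had 68 UMIs in iIELs and 7 in nIELs. Ccl3 and Ccl4 thus passed only through the cluster where they are higher. By the ratio of nIEL to iIEL level, Xcl1 ranked 12 from the top of the 4189 genes. Ccl4, Ccl3 and Ccl5 ranked 124, 166 and 637 from the bottom. These ranks depend on the 14 cells: without them, ranks not planned beforehand, Xcl1 was 23 from the top of 3321 genes, and Ccl4, Ccl3 and Ccl5 were 6, 9 and 65 from the bottom.

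Against the epithelium the contrast was larger for Ccl5 and Xcl1, while the bounds for Ccl4 and Ccl3 do not settle this. Taking the 362 IELs without the 14 cells and the 106 cells of the 3 subclusters, Ccl5 was 224-fold higher in IELs (148 to 358), at 14109 CPM against 62.9 CPM. The other 3 had no epithelial UMI, so their folds are taken against 3 counts over the group: 66.0-fold for Xcl1, 20.5-fold for Ccl4 and 6.03-fold for Ccl3. Their intervals start at 53.3, 16.3 and 4.50 and have no upper end. At least 10-fold higher were 3 of the 4, where 5.07% of 5778 genes were, and the value of Ccl3 lies below that fold. All UMIs of Xcl1, Ccl4 and Ccl3 in this comparison were in IELs, so these genes enter it only through the IELs. With the 14 cells taken out of the subclusters as well, Ccl5 was 291-fold higher. Against 3 counts the values were then 46.8-fold, 14.6-fold and 4.27-fold for Xcl1, Ccl4 and Ccl3.

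The few Ccl5 UMIs of epithelial cells were compared with those of other lymphocyte genes. Ccl5 stood in the subclusters at 0.446% of its IEL level (0.279% to 0.676%). The same share was 0.785% for Cd3d, 0.393% for Cd3g, 0.665% for Nkg7 and 0.873% for Klrd1, and 0.108% for Gzma and 0.120% for Cd7, from 1 to 3 epithelial UMIs each. The intervals of these 6 genes overlap with that of Ccl5. Trac stood higher, at 4.68% (2.53% to 7.95%), from 14 UMIs in a single absorptive precursor, and Trbc2 at 1.19% (0.434% to 2.60%), from 6 UMIs in a single cell. Cd3e had 0 epithelial UMIs, which allows up to 0.815%. The 13 subcluster cells with a Ccl5 UMI were deep, with a median of 3555.0 UMIs against 1536.0 in the other 93, and none of the 13 had a Cd3 UMI. Of the 22 Ccl5 UMIs of the subclusters, 10 were in cells that the other list names as IELs. These cells are among the 13 and reach 23171 UMIs. The epithelial share of Ccl5 thus lay within the range of shares of genes that mark T cells, and whether these UMIs were made in epithelial cells was not tested.

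In the B-cell cluster the Ccl5 signal followed the T-cell markers. The 11 cells with a Cd3 UMI held 259 of the 278 Ccl5 UMIs, 93.2%, at 10418 CPM. The 24 cells with a B-cell marker and no Cd3 UMI held 7 Ccl5 UMIs, at 207 CPM. Of the 19 Xcl1 UMIs, 14 were in the cells with a Cd3 UMI. The level of the cluster as a whole is therefore not that of its cells with B-cell markers alone. Ccl4 differed: 5 of its 6 UMIs lay in 3 cells of set X2 that had neither a Cd3 nor a B-cell marker UMI. These 3 cells held 15 Tyrobp and 9 Cd8b1 UMIs, and 0 UMIs of the epithelial, mast cell, neutrophil and NK cell lists. The macrophage and dendritic cell lists gave 1 UMI each in them. Without the 5 cells with markers of a pair of lineages, left out after seeing the data, the cluster stood at 1702 CPM for Ccl5 (1392 to 2060), 194 CPM for Xcl1 (100 to 340) and 97.2 CPM for Ccl4 (35.7 to 212).

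Single IELs mostly carried Ccl5 alone or Ccl5 with 1 other chemokine. Of the 362 IELs without the 14 cells, 180 had UMIs of Ccl5 only, 86 of Ccl5 and Xcl1, 29 of Ccl4 and Ccl5, and 17 of Xcl1 only. None of the 4 was found in 31 cells, and all 4 in 1 cell. Every IEL with a Ccl3 or a Ccl4 UMI also had a Ccl5 UMI, 15 of 15 and 39 of 39. Detection that is independent within each cluster gives 13.3 and 34.8 such cells. All numbers by independent detection use shares over all listed IELs, the 14 included. The 14 cells lower these shares, so the numbers over the 362 cells alone are somewhat higher. Ccl3 and Ccl4 were found together in 6 cells, where independent detection over all listed IELs gives 2.27, and 5 of the 6 were iIELs. Ccl4 and Xcl1 met in 5 cells, against 6.96 over all listed IELs, and Ccl5 and Xcl1 in 93, against 89.5. Ccl3 and Xcl1 met in 3 cells, against 3.00. Among IELs, Xcl1 without the other 3 was seen only in nIELs: 17 nIELs and 0 iIELs.

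**Figure D3:**
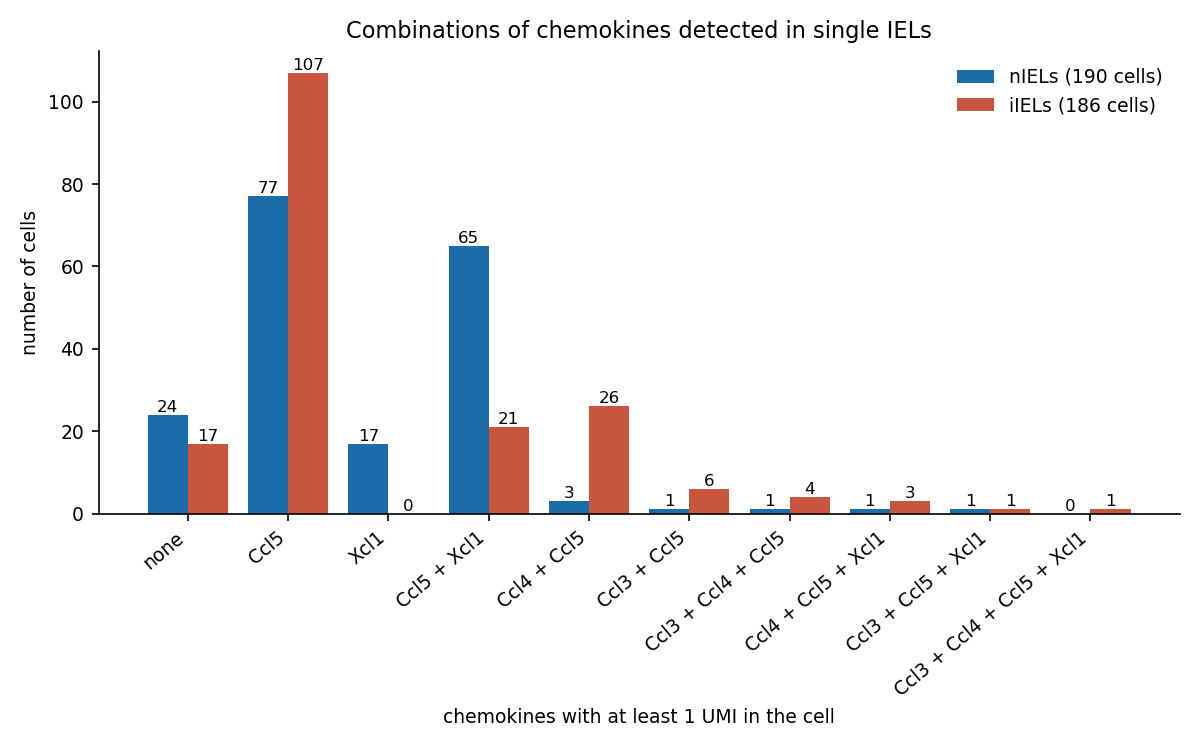
Number of nIELs (blue) and iIELs (red) with at least 1 UMI of each combination of the 4 chemokines. Ccl5 alone is the largest class in both, with 77 nIELs and 107 iIELs, Ccl5 with Xcl1 is found in 65 nIELs and 21 iIELs, and Ccl4 with Ccl5 in 3 nIELs and 26 iIELs.

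IELs were then split by whether a cell held a UMI of a gene from the T-cell identity or granule lists, leaving out the 14 cells. Gzma (granzyme A, a protease of cytotoxic granules and 1 of the 4 iIEL markers used here) is described in full because its split of the nIELs was the largest for Ccl5, a choice made after the values were seen. In the 23 nIELs with a Gzma UMI, Ccl5 stood at 30484 CPM (28500 to 32570), and in the 164 without at 4757 CPM (4468 to 5061), a ratio of 6.41 (5.85 to 7.02). These 23 cells had 12.0% of the UMIs of the nIELs, 46.6% of their Ccl5 UMIs, 6 of their 7 Ccl4 UMIs and all 3 of their Ccl3 UMIs. Without the cell with the most Ccl5 UMIs, also left out after seeing the data, the Ccl5 ratio was 6.01 (5.47 to 6.61). Xcl1 ran the other way, at 174 CPM (56.4 to 406) in nIELs with Gzma and 937 CPM (811 to 1077) in those without, a ratio of 0.185 (0.0596 to 0.440). The median depth was alike, 1207.0 UMIs with Gzma and 1132.0 without. In set X1 alone the ratios were 6.67 for Ccl5 and 0.166 for Xcl1. In set X2, with 3 nIELs that had a Gzma UMI, they were 4.45 for Ccl5 and 0.387 for Xcl1, the latter with an interval of 0.00906 to 2.62.

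The same split changed the iIELs less. With a Gzma UMI (95 cells), Ccl5 stood at 26466 CPM (25487 to 27473), and without (80 cells) at 16806 CPM (15926 to 17723), a ratio of 1.57 (1.48 to 1.68). Ccl4 was 519 CPM against 173 CPM, a ratio of 3.01 (1.65 to 5.86), and Ccl3 154 CPM against 37.0 CPM, a ratio of 4.16 (1.19 to 22.3). A single iIEL with Gzma held 19 of the Ccl4 and 7 of the Ccl3 UMIs. Without it, an alternative chosen after seeing the data, the ratios were 1.96 (1.03 to 3.94) for Ccl4 and 2.35 (0.586 to 13.5) for Ccl3, so the Ccl3 interval then includes 1. Xcl1 did not differ, at 202 CPM and 210 CPM. With both barcode sets together, nIELs with a Gzma UMI had a Ccl5 level above that of either group of iIELs. In set X2 they stood lower, at 25886 CPM in 3 cells, against 37923 CPM in iIELs with Gzma and 28089 CPM in those without, so this order did not hold in both sets. Their Ccl4, Ccl3 and Xcl1 intervals overlap with those of the iIELs. The nIELs without Gzma stood apart from the other 3 groups, with the lowest Ccl5 and the highest Xcl1.

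**Figure D4:**
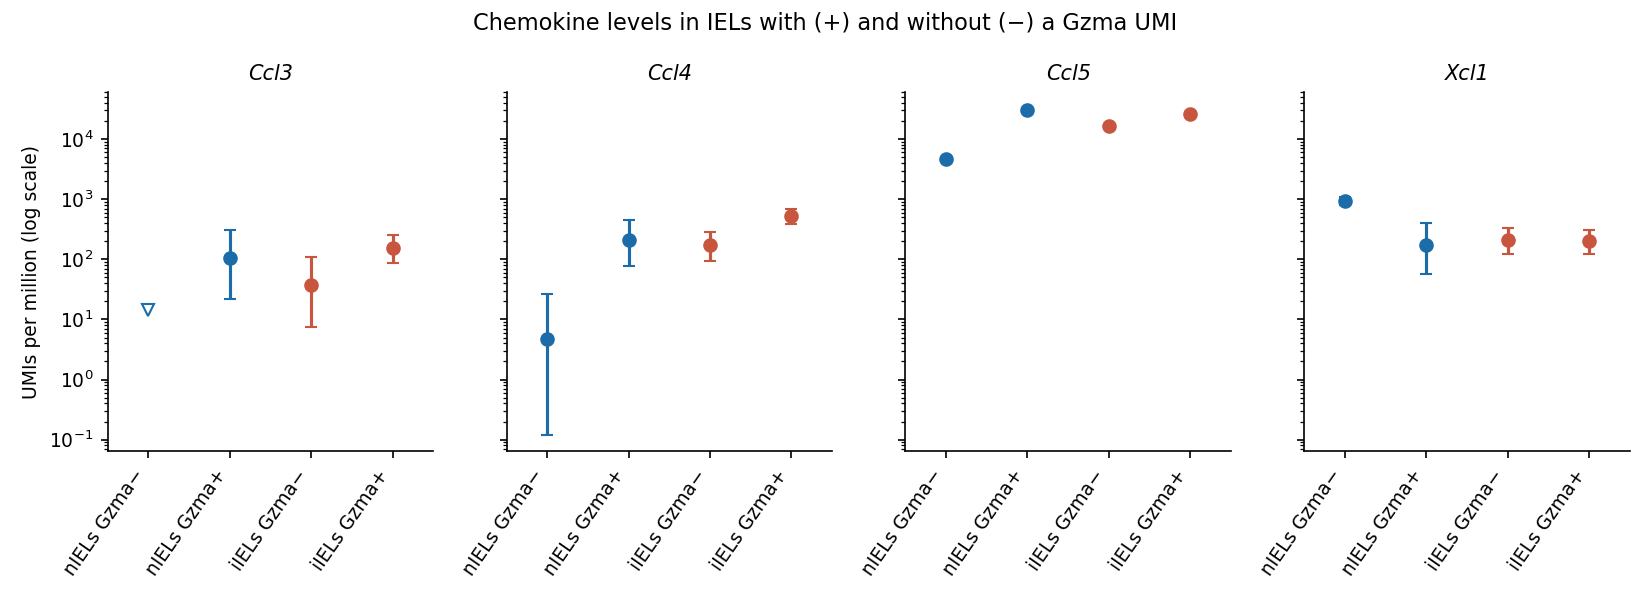
Level of each chemokine (CPM, log scale, exact Poisson 95% intervals) in nIELs (blue) and iIELs (red) without (−) and with (+) a Gzma UMI, leaving out the 14 cells of both lists; the open triangle is an upper limit. The nIELs with Gzma stand at 30484 CPM for Ccl5 and 174 CPM for Xcl1, the nIELs without at 4757 CPM and 937 CPM.

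The 23 nIELs with a Gzma UMI held markers of both IEL clusters. Tyrobp was 1460 CPM in them against 658 CPM in the other nIELs, Klrd1 2155 CPM against 1198 CPM, and Cd7 5318 CPM against 2859 CPM. Of the iIEL markers, Gzmb was 2398 CPM in them against 89.9 CPM in the other nIELs, and Cd8a, the CD8 alpha chain, 904 CPM against 379 CPM. In iIELs with a Gzma UMI these stood at 3402 CPM and 1028 CPM. Cd8b1, the CD8 beta chain, had 0 UMIs in the 23 cells. A Cd3 UMI was found in 22 of the 23, and Ncr1, Klrb1c and Eomes had 0 UMIs. Gzma itself was fixed by the split. Beside it these cells thus had nIEL markers together with Gzmb and Cd8a but not Cd8b1, and Ccl5, Ccl4 and Xcl1 levels nearer to those of iIELs than to those of the other nIELs.

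Splits by other genes follow, and the genes named here were picked after their values were seen. Among nIELs, a Gzmb UMI went with 3.28-fold more Ccl5 (2.98 to 3.60). A UMI of Klrd1, an NK receptor chain, went with more Xcl1, 995 CPM (855 to 1152) against 399 CPM (256 to 593). For Tyrobp, an adapter of such receptors, Xcl1 was 1138 CPM against 646 CPM, a ratio of 1.76 (1.33 to 2.35). Among iIELs, Ccl4 was higher in cells with a Gzmb UMI, 506 CPM against 170 CPM, a ratio of 2.98 (1.61 to 5.94), or 1.96 (1.01 to 4.02) without the cell with 19 Ccl4 UMIs. For Cd8b1 the ratio was 2.08 (1.23 to 3.61), but 1.21 (0.664 to 2.22) without that cell. It was lower in iIELs with a Cd7 UMI, 194 CPM against 584 CPM, a ratio of 0.332 (0.187 to 0.571), or 0.547 (0.293 to 1.00) without it. In all 6 of these splits the cells with the UMI had the higher median depth, and the part of depth was not tested.

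Splits by the chemokines themselves were read against all genes. Among nIELs without the 14 cells, 84 had an Xcl1 UMI and 103 did not. Their median depths were 1243.5 and 1091.0 UMIs, and the part of depth was not tested. Of 1996 genes with enough UMIs, 3.01% were at least 2-fold higher and 5.01% at least 2-fold lower in cells with Xcl1. Ccl5 passed neither, at 5635 CPM against 10052 CPM, a ratio of 0.561 (0.509 to 0.616). Of 6 granule genes, 2 were at least 2-fold lower: Gzma, 275 CPM against 2177 CPM, and Gzmb, 241 CPM against 492 CPM. Of 5 activation genes, 2 were lower, Fos with a ratio of 0.371 and Jun with 0.428. Of 13 T-cell identity genes, 1 was higher, Tyrobp with a ratio of 2.06 (1.50 to 2.86). None of 5 regulators or of 2 cytokines passed 2-fold, and no receptor had enough UMIs. The median ratio over all genes was 0.998.

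Among iIELs, 34 had a Ccl4 UMI and 141 did not, with median depths of 991.00 and 931.00 UMIs. Of 1574 genes, 5.15% were at least 2-fold higher and 10.7% at least 2-fold lower in cells with Ccl4. Ccl5 and Xcl1 passed neither, with ratios of 1.31 (1.21 to 1.40) and 1.28 (0.532 to 2.77). None of 7 granule genes passed 2-fold, though Gzmb came near, at 3510 CPM against 1826 CPM, a ratio of 1.92 (1.54 to 2.38). Of 3 cytokines 1 was higher (Tnfsf10, 2.29), of 3 receptors 1 was lower (Ccr9, 0.196) and of 4 regulators 1 was lower (Zfp36l1, 0.412), each with an interval that includes 1. None of 4 activation genes or of 14 T-cell identity genes passed. The median ratio over all genes was 0.965.

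Of the 18 chemokine ligands in the matrix, 5 had at least 20 UMIs in the listed cells: the 4 lymphocyte genes and Ccl6. Ccl6, a chemokine for myeloid cells, had 374 UMIs, of which 341 were in secretory precursors by the subcluster list. Its 113 UMIs in iIELs were all in the 11 cells of both lists, so without those cells it had no IEL UMI. The next most abundant were Ccl28 with 16 UMIs and Ccl9 with 15, and Cxcl10, Cxcl16 and Ccl8 had none. By level, 3 of the 5 were highest in iIELs, 1 in nIELs and 1 in epithelial cells. At least 2-fold higher was 1 of the 5 in nIELs, Xcl1, with or without the 14 cells. In iIELs 3 were higher with all cells, Ccl3, Ccl4 and Ccl6, and without the 14 these were Ccl3, Ccl4 and Ccl5. Over all genes the shares were 6.97% (nIELs) and 13.2% (iIELs) with all cells and 5.72% and 6.20% without the 14, and these stand beside each list count that follows.

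Of 22 chemokine receptors described here, 14 are in the matrix and 3 had at least 20 UMIs. Xcr1, the receptor of Xcl1, is not in it. Cxcr6, the receptor of Cxcl16, stood at 183 CPM in iIELs and 49.4 CPM in nIELs, 3.70-fold higher (1.95 to 7.62), or 5.62-fold without the 14 cells. Ccr9, a gut-homing receptor, was 77.4 CPM in iIELs and 70.0 CPM in nIELs, and Cxcr3 73.9 CPM and 74.1 CPM, so neither differed between them with all cells. Thus 1 of these 3 receptors was at least 2-fold higher in iIELs and 0 in nIELs, also without the 14 cells. Ccr1, a receptor of Ccl3 and Ccl5, had 3 UMIs, all in the B-cell cluster. The epithelial cluster held no UMI of the 3, and the subclusters 1 of Cxcr3.

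Of 20 lymphocyte cytokines listed, 14 are in the matrix and 4 had at least 20 UMIs. Ltb (lymphotoxin beta) was 2.20-fold higher in nIELs (1.50 to 3.28), or 1.49-fold without the 14 cells. Fasl, a death ligand, was 2.85-fold higher in iIELs (1.10 to 8.67), or 4.32-fold without them. Il16 and Tnfsf10 had ratios of 1.03 and 1.00. At least 2-fold higher was thus 1 of 4 in nIELs, or 0 without the 14 cells, and 1 of 4 in iIELs in either case. Ifng, often released together with these chemokines, had 14 UMIs, 9 of them in iIELs.

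All 10 granule genes had at least 20 UMIs, and with all cells 1 was at least 2-fold higher in nIELs and 3 in iIELs, where 6.97% and 13.2% of all genes were. Gzma and Gzmb are iIEL markers, so for them the direction reflects how the clusters were named and is no separate result. Gzmk was 22.2-fold higher in iIELs (5.85 to 188), from 2 UMIs against 52, Gzmb 3.87-fold (3.07 to 4.94) and Gzma 2.43-fold (2.13 to 2.79). Gzmc was 3.98-fold higher in nIELs (1.41 to 13.8), from 17 UMIs in 4 cells against 5 in 1 cell. With the 14 cells left out, 4 were higher in iIELs, with Prf1 (perforin) at 2.59-fold. Srgn, Nkg7, Cst7, Ctsw and Ctla2a stayed within 2-fold in both.

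**Figure D5:**
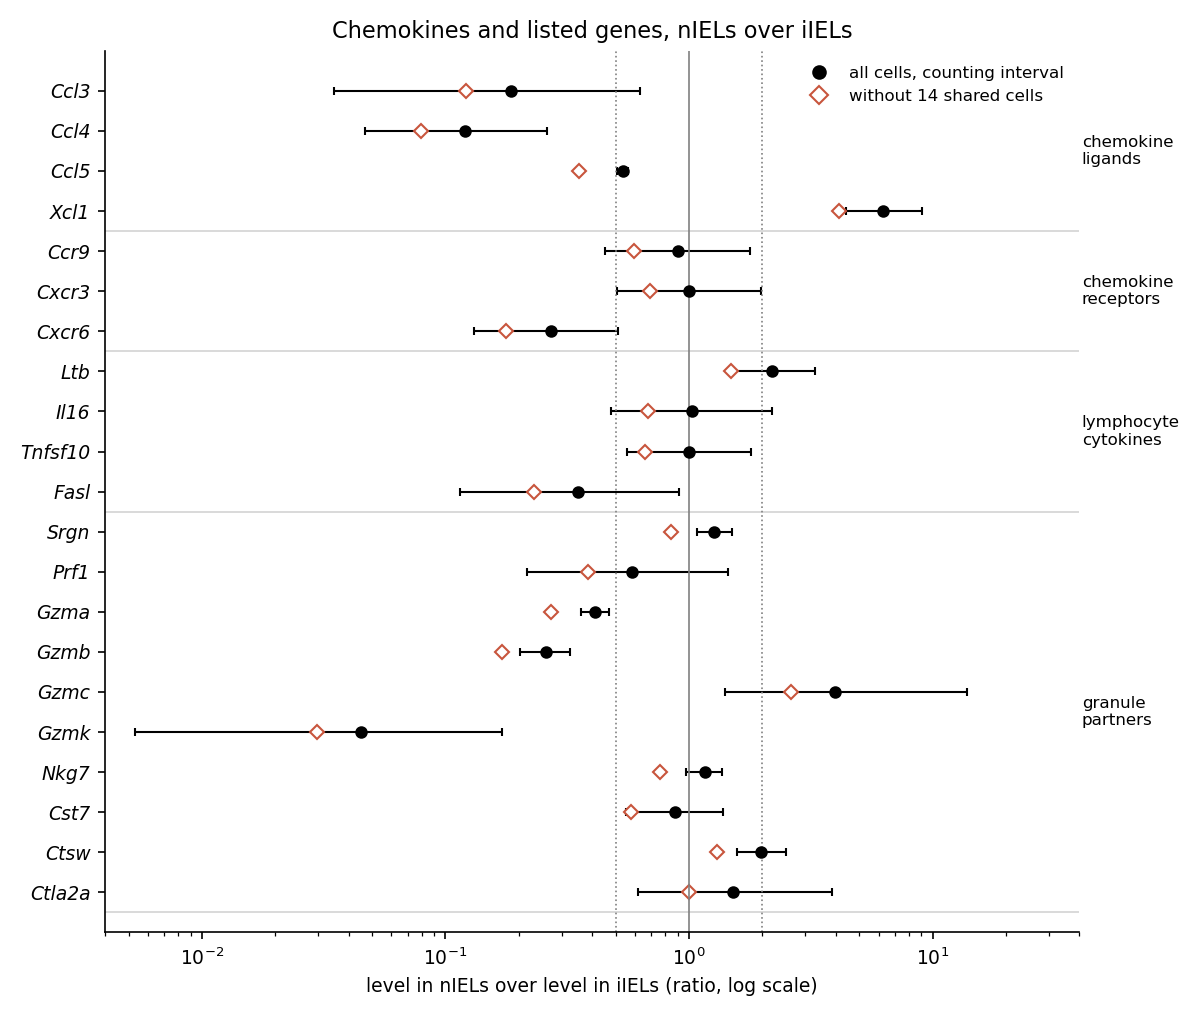
Ratio of the nIEL level to the iIEL level (log scale) for the 4 chemokines and for receptor, cytokine and granule genes with at least 20 UMIs in IELs and UMIs in both; black points are all listed cells with counting intervals, red diamonds leave out the 14 cells of both lists, and dotted lines mark 2-fold. Xcl1 (6.25) and Gzmc (3.98) stand to the right, and Ccl4 (0.120), Ccl3 (0.185) and Gzmk (0.0450) to the left.

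All 23 regulators are in the matrix, and 17 had at least 20 UMIs, 10 of them highest in the B-cell cluster. Of the 15 with at least 20 UMIs in IELs, 4 were at least 2-fold higher in nIELs: Rel (4.21), Zfp36l1 (2.93), Rela (2.73) and Nfkbiz (2.17), the last pair with intervals that include 1. In iIELs 1 was higher, Nfatc3 at 2.71-fold (1.04 to 8.28). These counts were 3 and 1 when the 14 cells were left out. The median ratio of the list was 1.40, against 0.990 over all genes. Runx3 and Tbx21, factors of cytotoxic T cells, had ratios of 1.19 and 1.37, and of 0.797 and 0.900 when the 14 cells were left out. Of 14 activation genes, 13 are in the matrix and 10 had at least 20 UMIs. With all cells 2 of 6 with enough IEL UMIs were higher in nIELs, Fos (2.45) and Jun (2.91), and 0 without the 14 cells. Of the 15 T-cell identity genes, 14 had at least 20 UMIs, and 8 were at least 2-fold higher in nIELs, with Tyrobp the highest at 6.62-fold, and 1 in iIELs, Cd8b1 at 16.8-fold. They were 7 and 2 when the 14 cells were left out. Several of these genes are markers by which IEL populations are told apart, so this list shows how the clusters were named and is no separate result.

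The genes most like each chemokine were taken by Pearson's r of log2(CPM + 10) over 11 points, nIELs and iIELs without the 14 cells, the B-cell cluster and the subclusters, each within X1 and X2 where it holds at least 5 cells, among 2850 genes with at least 50 UMIs. The points share a matrix and differ widely in depth, and r is a description. For Ccl5 the nearest were Gbp8 (0.99), Hcst, Nkg7 and Rinl (0.98 each) and Gzma (0.97). For Xcl1 they were Tcrg-C1, Trgv2, Trbc1, Gimap8 and Tcrg-C2, all at 0.98. For Ccl4 they were Cd8b1 (0.93), Gps2, Cdkn2d and Gpr171 (0.87 each) and Ccdc12 (0.86), and for Ccl3 Gbp4 (0.90), then Cd247, Sugt1, Fam189b and Klre1 (0.87 each). The highest Ccl4 point, 859 CPM, is the B-cell cluster in X2, with 5 cells and 5820 UMIs. Its Ccl4 UMIs come from 3 cells, which also held 9 Cd8b1 UMIs. Among the 4 themselves r was highest for Ccl5 and Xcl1 (0.88), which share the IEL and epithelial contrast, and lowest for Ccl4 and Xcl1 (0.20). Ccl3 and Ccl4, the neighbours in the genome, had 0.53.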

How the data were processed

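Colon crypt cells of 2 pooled libraries were measured by Drop-seq. The authors deposited 1 matrix of whole UMI counts (unit: counts, not normalised). By their notes, reads were aligned to mm10 and hg19 with STAR 2.5.0 and handled with Picard 1.137. Cluster labels came from the list of cells the authors published. Cells in no list were left out of the comparisons. Results of 1 listed gene are not given.

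Counts were summed over the cells of a group and divided by the group's UMIs (CPM). Intervals at 95% were exact Poisson for levels, Clopper-Pearson for shares and conditional binomial for ratios. A count of 0 was given the limit of 3 counts, and no fold was given where both groups had at most 3. Gene-wide comparisons used genes with at least 20 UMIs and 2-fold. Thinning to 700 UMIs used 100 draws and left out shallower cells. Co-detection was set beside the product of detection shares within each cluster, over all listed cells. The libraries are 1 group and not told apart in the matrix, so no test was made. Named genes were the 4 chemokines, list genes with at least 20 UMIs and the 5 most alike by Pearson's r. Other genes are named as well, among them markers and list genes with fewer UMIs, which are given by their counts. Splits picked after their values were seen are said to be so. The members and lists were chosen with earlier results of these data known.

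Ratios were tested on simulated data with planted folds. Alternatives were each barcode set, leaving out cells of both lists, the top cell or cells with markers of a pair of lineages, joining barcodes 1 base apart, means over cells, totals without 338 mitochondrial and ribosomal protein genes, at least 2 UMIs, thinning and other minimums. Each barcode set without the cells of both lists, marker splits without the top cell ranks without the cells of both lists, ratios without cells with NK cell markers and the B-cell cluster without cells with markers of a pair of lineages were added after seeing the data. Python 3.11.15, numpy 2.4.6, pandas 2.3.3, scipy 1.17.1 and matplotlib 3.10.9 were used.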

Additional observations from a re-analysis of the deposited data

Results flagged for a closer look

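The 601 barcodes that no list places were not part of any comparison, and they carried 3 of the 4 chemokines above the limit that a count of 0 allows. Ccl5 stood at 4973 CPM in them (4645 to 5318), with a UMI in 27.0% of the barcodes. Xcl1 stood at 116 CPM (71.1 to 180) and Ccl4 at 64.1 CPM (32.0 to 115). These barcodes had a median of 212.00 UMIs, and 36.8% of their UMIs were mitochondrial, against 1126.0 UMIs and 3.83% in the listed cells. Whether these are cells or free RNA was not tested.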

How the results depend on the processing

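Of 162 alternative values, 116 stayed within the interval or margin of the value reported, 45 moved and 1 crossed to the other side of 1. Of the 116, 18 could not change, since they leave out only cells of the B-cell cluster. Ccl3 rests on 22 UMIs, and set X2 has 17 nIELs and 16 iIELs. Animals, pools and gates cannot be told apart. Causes were not tested.

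With only X2, the nIEL over iIEL ratio of Ccl5 was 1.02, with an interval of 0.850 to 1.22 that includes 1. Leaving out the cells of both lists as well, an alternative chosen after seeing the data, gave 0.281 for Ccl5 and 7.14 for Xcl1. For Ccl4 the limit of 3 counts then gave 0.206, with an interval of 0 to 0.322. With all listed cells of X2, the ratio was 25.9 for Xcl1. For Ccl4, with 0 UMIs in nIELs, the limit of 3 counts gave 0.748, with an interval of 0 to 1.17 that includes 1. IEL over epithelial, against 3 counts, was 7.81 for Ccl4, 543 for Ccl5 and 13.7 for Xcl1. The shares of nIELs with a UMI were 5.88% (Ccl3), 0 (Ccl4) and 52.9% (Xcl1), and of iIELs 81.2% (Ccl5) and 6.25% (Xcl1). Genes past 2-fold numbered 113 in nIELs and 105 in iIELs. Ccl3 gave no nIEL over iIEL or epithelial value in X2.

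With only X1, the nIEL over iIEL ratio of Ccl5 was 0.494, and IEL over epithelial at least 4.37 (Ccl3), 14.6 (Ccl4) and 49.6 (Xcl1). X1 without the cells of both lists, also chosen after seeing the data, gave 0.358 for Ccl5 and 4.07 for Xcl1. Without the cells of both lists, nIEL over iIEL was 0.353 for Ccl5 and 4.12 for Xcl1, IEL over epithelial at least 4.27 (Ccl3), 14.6 (Ccl4) and 46.8 (Xcl1), the share of iIELs with Ccl5 94.9%, and the genes past 2-fold 190 in nIELs and 206 in iIELs.

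Averaging CPM over single cells gave 0.362 for Ccl5 and 4.00 for Xcl1. For genes with no epithelial UMI it gave no IEL over epithelial value. Totals without mitochondrial and ribosomal protein genes gave 0.571 for Ccl5. Without the top cell, IEL over epithelial was at least 4.11 (Ccl3) and 15.4 (Ccl4). Asking for at least 2 UMIs gave nIEL shares of 0 (Ccl3), 0.526% (Ccl4), 66.3% (Ccl5) and 22.1% (Xcl1), and iIEL shares of 1.08% (Ccl3), 5.91% (Ccl4) and 4.30% (Xcl1). Thinning gave 33.2% of nIELs with Xcl1. With a minimum of 50 UMIs, 82 genes passed 2-fold in nIELs and 166 in iIELs, and with 1 UMI 3570 and 3524. In nIELs alone, Ccl3 and Ccl4 met 12.7 times as often as independent detection gives, from 1 cell. Joining barcodes kept each value within the interval of the value reported, though Ccl3, on few UMIs, went from 0.185 to 0.119 for nIEL over iIEL and from 1.58% to 1.06% of nIELs. The cells with markers of a pair of lineages are all in the B-cell cluster, so leaving them out could not change these values.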
